A study of Mus musculus with 12 samples.

Results

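The genes described here are the HOX genes and 11 further families of developmental patterning transcription factors (MEOX, MSX, DLX, SIX-family, PAX, PITX, PRRX, LHX, IRX, ALX and TBX) in cells of the mouse melanoma line 4599. They were taken by symbol from the gene table, as every protein-coding row whose name is a family stem followed by a number, without reference to its level. This gave 100 genes out of 56748 rows, of which 39 are HOX genes, 11 in cluster A, 10 in cluster B and 9 each in clusters C and D. RNA was sequenced from 12 libraries, 3 in each of 4 groups. Met cells came from lung metastases of the melanoma, and DIF, PIF and TB cells from different parts of orthotopic melanomas; the labels do not spell out these 3 abbreviations. Cells of all 4 groups met the same culture before lysis, on a fibrillar gel of bovine dermal collagen (1.7 mg/ml), first 24 h in medium with 10% serum and then 24 h with 1% serum. The 4 groups thus share line and substrate, and they differ by where the cells were taken. Whether libraries of the same group stem from separate animals or cultures is not in the labels, so the p-values below measure the spread between these libraries, which may be technical.

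HOX proteins are homeodomain transcription factors that give cells their position along the head-to-tail axis, and their genes stand in 4 clusters whose order on the chromosome follows the order of their expression along that axis. Connective tissue cells of adult skin keep part of this positional code in culture. The T-box, paired-type, SIX-family, Iroquois and distal-less families lay out the limbs, the face, the somites and the neural crest, the source of melanocytes, in which PAX3 acts early and activates Mitf.

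Reads assigned to genes numbered 15.5 to 18.4 M per library. The labelled cell type was set against melanocyte markers. Sox10, the neural crest and melanocyte lineage factor, averaged 217 ± 15.4 FPKM (fragments scaled to gene length and library size) in Met, 221 ± 18.0 in DIF, 249 ± 26.3 in PIF and 230 ± 28.3 in TB cells (SD, n = 3 each), whereas the pigment gene Tyrp1 was at 0 in every library and Tyr, Dct and Mlana averaged 0.0109, 0.0371 and 0.0729 FPKM over the 12 libraries. Of 8 fibroblast markers, none was at 0; their summed level was 7.87 to 9.96 FPKM in Met, 10.9 to 16.0 in DIF, 5.58 to 8.98 in PIF and 10.7 to 11.4 in TB libraries, most of it Col3a1, while Lum and Col1a2 averaged 0.00185 and 0.0213 FPKM. Single markers of that list did not share an order: Col1a1 averaged 0.865 ± 0.361 FPKM in Met, 0.468 ± 0.363 in DIF, 0.0637 ± 0.0384 in PIF and 0.0981 ± 0.0441 in TB cells, Thy1 averaged 0.335 ± 0.0873 in Met and 0.0546 ± 0.0791 in DIF cells and was at 0 in PIF and TB cells, and Pdgfra averaged 0.207 ± 0.0243, 0.159 ± 0.0590, 0.384 ± 0.111 and 0.181 ± 0.0276 in Met, DIF, PIF and TB cells (SD, n = 3 each). The 6 leukocyte markers summed to 0.825 to 1.05, 0.606 to 1.05, 1.47 to 2.95 and 1.11 to 1.70 FPKM in Met, DIF, PIF and TB libraries, with Itgam, Cd3e and Adgre1 at 0. The 4 endothelial markers stayed at or under 0.0712 FPKM, the 5 of lung epithelium at or under 0.231 and the 4 of skeletal muscle at or under 0.304, with Myod1 and Myog at 0; the 4 of keratinocytes summed to 2.02 to 3.31 FPKM, with Krt5 and Krt1 at 0. The fibroblast sum was lower in every Met and PIF library than in any DIF or TB library. Several of the genes below had their lowest mean in PIF cells. Among them, Prrx1, Tbx15, Tbx18, Meox1, Hoxa3, Six5 and Dlx1 had higher means in Met than in TB cells. Tbx4, Hoxa5 and Irx3 had lower ones. The part of the fibroblast sum in those results was not tested. In bulk RNA of this kind, fewer cells of a type and less RNA per cell cannot be told apart.

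Most of the 100 genes were silent or nearly so. By their mean over the 12 libraries, 21 were at 1 FPKM or more, called on here, 6 were low (from 0.1 FPKM to under 1), 31 were at a trace (under 0.1) and 42 had no read in any library. A count of 0 allows up to 3 reads, which corresponds to 0.00233 to 0.0137 FPKM over the 12 libraries, depending on gene length. The paired-type factor Prrx1, a gene of limb and craniofacial mesenchyme, stood far above the others at a mean of 63.5 FPKM, rank 785 of 21970 protein-coding genes. Tbx2 followed at 6.63 FPKM, and the lowest of the 21 was Dlx1 at 1.02 FPKM. By family, the genes on were 5 of 13 T-box genes, 2 of 6 Iroquois and 2 of 6 distal-less genes, 1 of 9 PAX, and 1 gene each of the MEOX and PRRX pairs, beside SIX-family genes and HOX genes of cluster A. No member of the ALX, LHX, PITX or MSX families reached 1 FPKM; their highest means were 0.392 for Alx4, 0.477 for Lhx2, 0.00892 for Pitx3 and 0.00579 for Msx3.

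**Figure D1:**
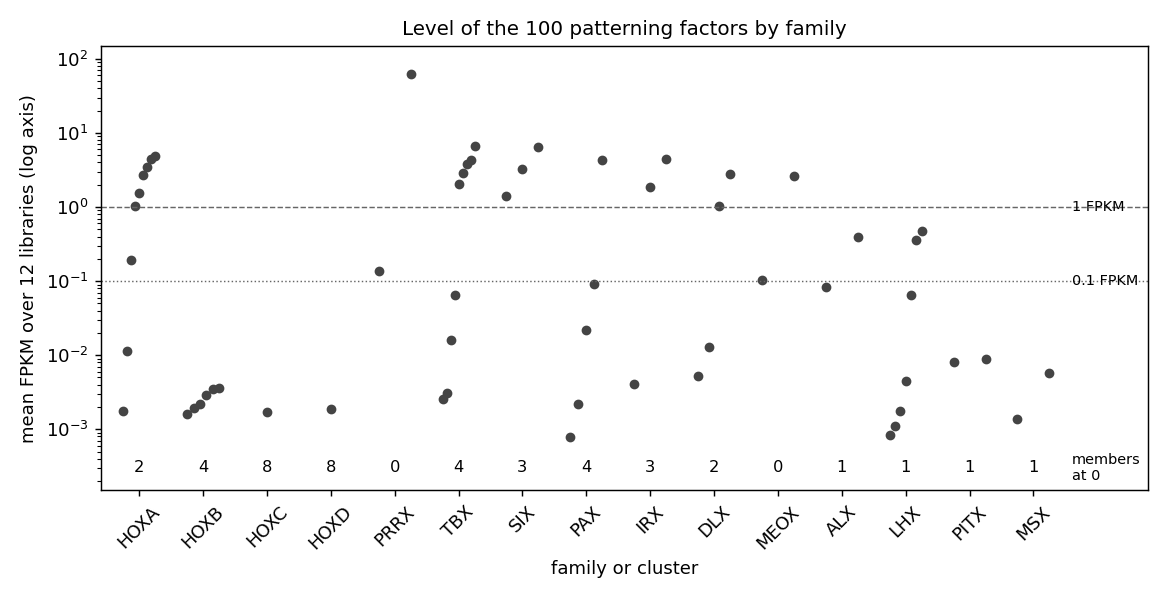
Mean FPKM over the 12 libraries (log axis) of each of the 100 genes, by family; 1 dot is a gene, the digits count the family's genes with no read, and the lines stand at 1 and 0.1 FPKM. Prrx1, at 63.5 FPKM, lies apart from all others, and HOX genes above 1 FPKM occur in cluster A alone.

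HOX expression came almost wholly from a stretch at the 3' end of cluster A. The stretch ends at Hoxa7 and holds genes of the head, neck and upper trunk end of the code. The 39 HOX genes together received 11718 reads over the 12 libraries, and 11707 of these (99.9%) fell on HOXA genes. Hoxa2, Hoxa3, Hoxa5, Hoxa6 and Hoxa7 averaged 2.68, 4.49, 4.93, 1.57 and 3.43 FPKM over the 12 libraries, in their order on the chromosome. Hoxa4, inside the same stretch, was low at 0.191 FPKM, with 65 reads in all and 1 to 14 per library. Beyond Hoxa7 the level dropped. Hoxa9, the next gene of the cluster, had 2 reads in all (0.00177 FPKM), Hoxa10 had 8 (0.0113 FPKM), and Hoxa11 and Hoxa13 had none. Outside cluster A, 28 HOX genes shared 11 reads: 20 had none, and the other 8 had at most 2 each. For the 22 HOX genes with no read, 3 reads would correspond to 0.00335 to 0.0137 FPKM.

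**Figure D2:**
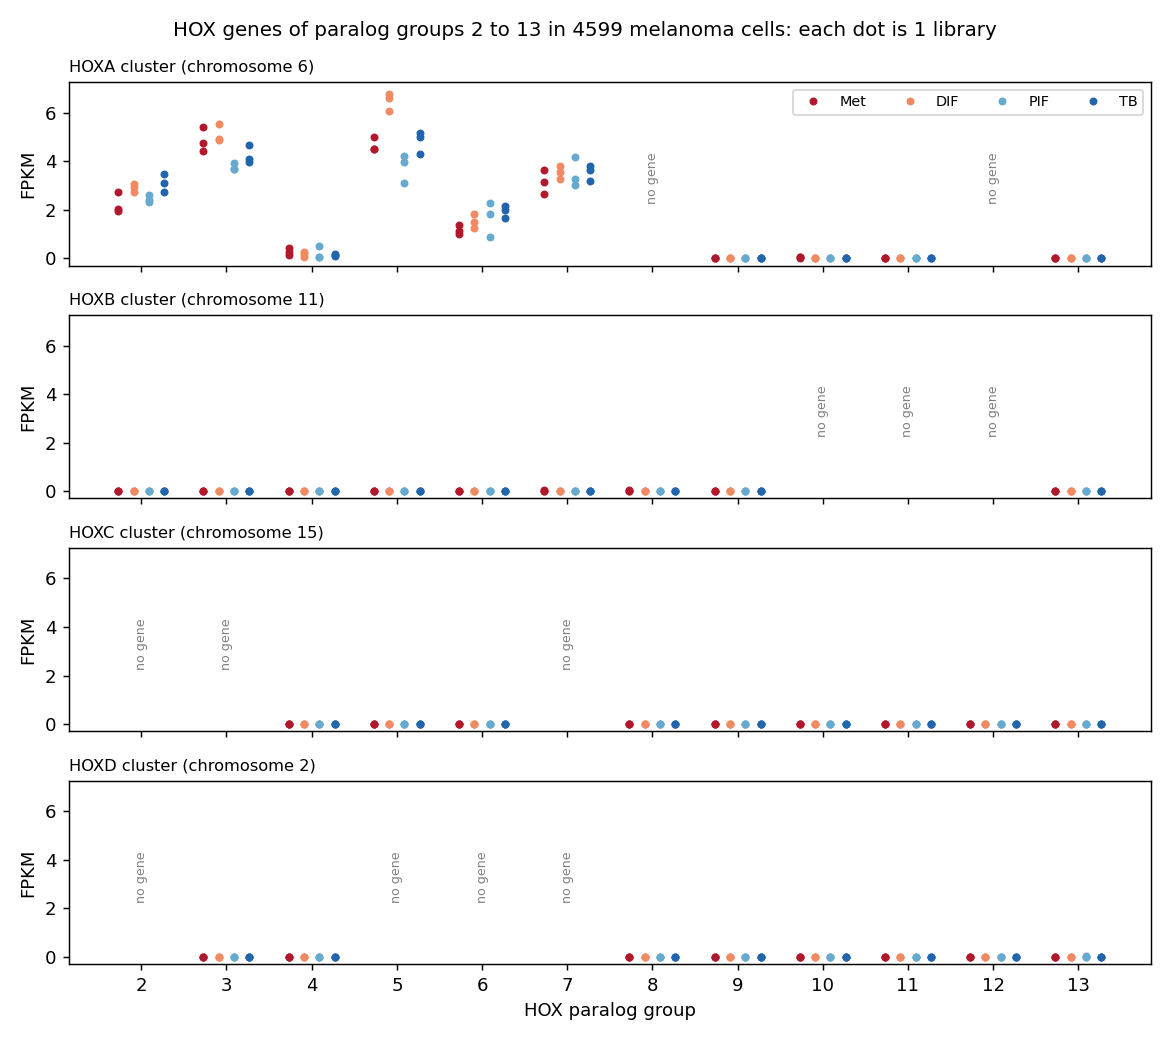
Level of each HOX gene of paralog groups 2 to 13 (x axis) in clusters A, B, C and D (panels), as FPKM in each library. Levels of 1 FPKM or more are found at groups 2, 3, 5, 6 and 7 of cluster A and nowhere in clusters B, C and D.

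The edge of the expressed stretch lies between Hoxa7 and Hoxa9, and the 2 promoters on either side of it are shown for that reason. Each is 300 bases from RefSeq on the GRCm38.p6 build, 250 before the gene's start there and 50 after it, read 5' to 3' on the gene's own strand, with capitals marking CG dinucleotides. Hoxa7 is at chr6:52218524-52218823 and Hoxa9 at chr6:52227321-52227620, both on the minus strand.
Hoxa7: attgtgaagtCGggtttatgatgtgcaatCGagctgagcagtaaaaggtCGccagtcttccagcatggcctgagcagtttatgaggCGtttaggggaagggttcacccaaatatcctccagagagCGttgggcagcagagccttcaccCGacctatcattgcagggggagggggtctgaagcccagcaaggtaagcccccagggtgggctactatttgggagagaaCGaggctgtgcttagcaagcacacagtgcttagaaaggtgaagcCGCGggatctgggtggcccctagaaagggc
Hoxa9: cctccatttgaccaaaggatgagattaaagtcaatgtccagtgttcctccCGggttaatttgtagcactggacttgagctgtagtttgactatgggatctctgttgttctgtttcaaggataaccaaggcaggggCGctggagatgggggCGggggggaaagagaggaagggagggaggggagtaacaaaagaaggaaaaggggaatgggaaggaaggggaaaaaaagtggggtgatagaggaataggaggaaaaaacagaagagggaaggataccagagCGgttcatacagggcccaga
The Hoxa7 promoter holds 9 CG dinucleotides and that of Hoxa9 holds 4. CG counts of expressed and silent HOX genes overlapped: promoters of the 5 HOX genes on with an entry held a median of 20.0 (9 to 29) and the 13 promoters of HOX genes with no read a median of 15 (4 to 45), against 7.0 over all 32851 promoters of the table. RefSeq entries were matched for 62 of the 100 genes and 13 of the 21 on.

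The deposited table lists these HOXA genes on chromosome 6, minus strand, with the span of Hoxa2 at 52139397 to 52141811, Hoxa3 at 52146042 to 52190316, Hoxa5 at 52178734 to 52181567, Hoxa6 at 52183268 to 52185702 and Hoxa7 at 52191471 to 52198834; the build is not given in the sources used here. The span of Hoxa3 takes in Hoxa4, Hoxa5 and Hoxa6 on the same strand, so reads in shared exons could be split or lost among these rows. Of 20 other rows of the table inside cluster A, 9 had a read and 4 reached a mean of 0.5 FPKM. These were Hotairm1, a long noncoding RNA of the other strand, at 5.97 FPKM, Gm15050 at 2.09, Hoxaas2 at 0.565 and an unnamed short RNA row (ENSMUSG00002075580) at 7.80. Clusters B, C and D held 10, 7 and 10 other rows, of which 1, 0 and 1 had a read. The strand setting of the counting is not given, so reads of a noncoding row and of a HOX gene on the other strand cannot be told apart where they overlap.

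**Figure D3:**
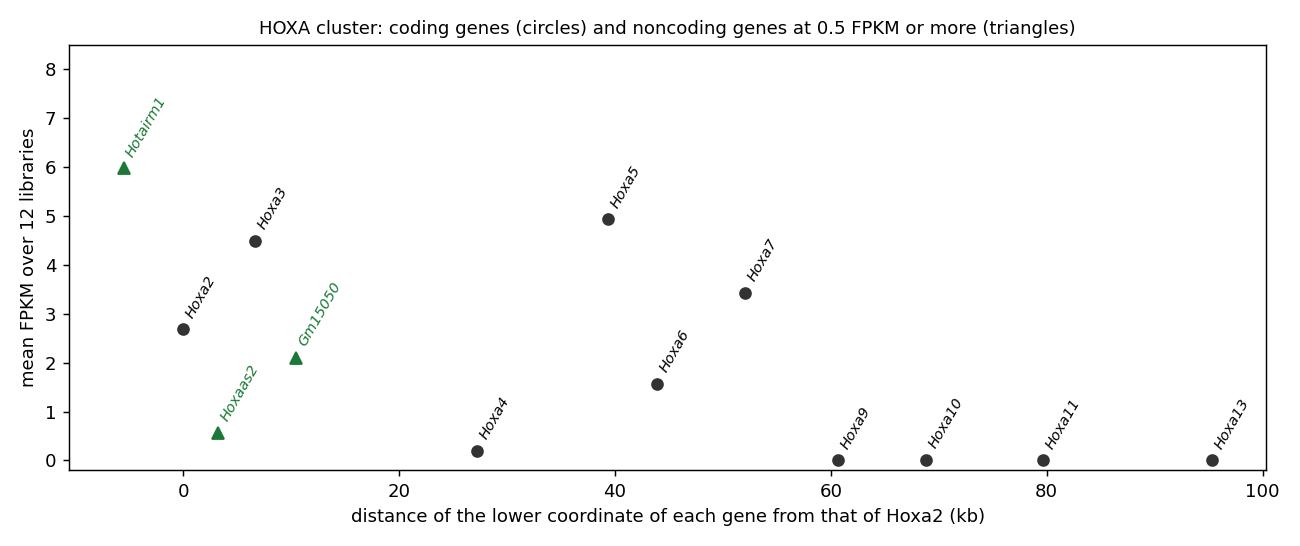
Mean FPKM over the 12 libraries of the rows of cluster A against distance of the row's lower coordinate from that of Hoxa2 (kb); circles are HOX genes and triangles named noncoding rows at 0.5 FPKM or more. Levels of 1 FPKM or more end at Hoxa7.

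Differences among groups were tested for genes with a mean of at least 0.5 FPKM over the 12 libraries, which kept 12661 genes. All 21 genes on passed, with Dlx1 at 1.02 FPKM just inside; the other 79 were not tested, with Lhx2 at 0.477 FPKM just outside. Meox1 passed through Met and DIF cells alone, so the counts that follow describe the 21 and are no evidence about the 100. The test was limma's moderated test on log2(FPKM + 1), with Benjamini-Hochberg adjustment over the 12661 genes and a call at an adjusted p under 0.05; log2 fold changes are on that scale, which understates changes of low genes. An F test over the 4 groups called 13 of the 21, against 24.8% of all genes tested. Every pair of groups was also compared, and 15 of the 21 were called in at least 1 pair, against 31.7% of all genes tested. These comparisons share libraries, so they are not independent of each other.

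Against TB cells, Met cells differed in 5 of the 21 genes (background 9.94% of genes tested): Meox1, Dlx2, Tbx2 and Tbx18 were higher (5.32% of genes tested rose) and Hoxa2 was lower (4.63% fell). DIF cells differed from TB cells in 5 genes as well (background 8.62%), with Meox1, Six5, Hoxa5 and Tbx18 higher (4.26%) and Pax3 lower (4.36%). PIF cells differed from TB cells in 4 genes (background 14.1%), and all 4, Tbx15, Tbx18, Tbx4 and Prrx1, were lower (6.58% of genes tested fell and 7.52% rose). The counts against PIF cells were larger. In Met cells 8 of the 21 were called against PIF cells (background 17.6%), all of them higher (8.85%, with 8.80% lower), among them Meox1, Tbx18, Tbx15, Prrx1, Dlx1, Tbx2 and Hoxa3. In DIF cells 10 were called against PIF cells (background 18.9%), with Meox1, Tbx18, Tbx15, Hoxa5, Tbx4, Prrx1, Six5 and Hoxa3 higher (9.03%) and Pax3 and Six4 lower (9.85%). Met and DIF cells differed in 4 (background 3.86%), with Meox1 and Dlx2 higher in Met cells (2.36%) and Hoxa5 and Tbx4 lower (1.50%). The median log2 fold change of the 21 was 0.15 for Met against TB, 0.09 for DIF against TB and -0.16 for PIF against TB, and 0.26 for Met against PIF, 0.19 for DIF against PIF and 0.01 for Met against DIF, where the medians of all genes tested lay between -0.00 and 0.01. PIF cells had the lowest group mean for 11 of the 21 genes, against 4 for Met, 3 for DIF and 3 for TB cells; of all genes tested, 30.1% had their lowest mean in PIF, 23.1% in Met, 22.2% in DIF and 24.6% in TB cells. The counts depended on single libraries. The PIF against TB count was 2 without TB replicate 1, TB replicate 2 or PIF replicate 1. Over all genes tested, calls in those fits numbered 1525, 993 and 1102, against 1785 with all libraries. The DIF against TB count was 2 without TB replicate 2 and 3 without TB replicate 1 or 3 or DIF replicate 1 or 2. Over all genes tested, calls in those fits numbered 611, 950, 606, 874 and 589, against 1091 with all libraries. The Met against DIF count was 2 without DIF replicate 1 or 3 or Met replicate 3, where 1.85% to 2.92% of all genes tested were called.

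**Figure D4:**
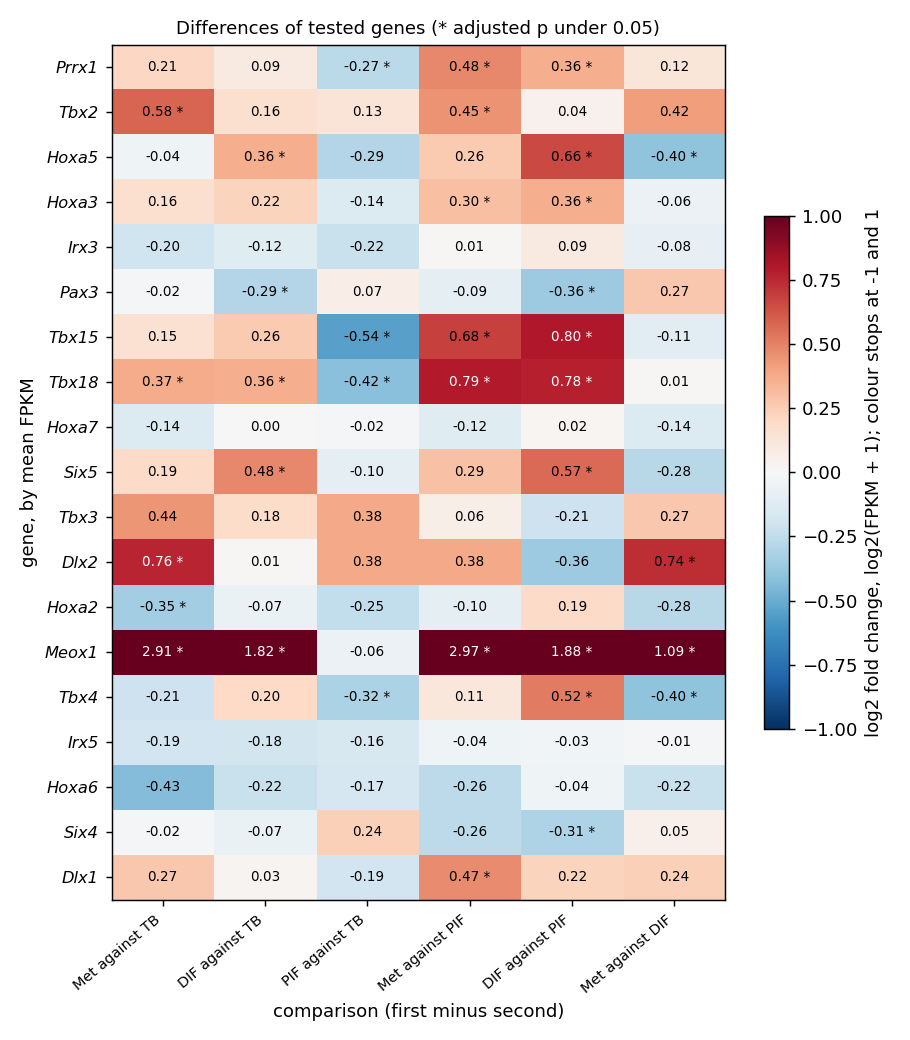
Fold changes, as differences of log2(FPKM + 1), of 19 of the 21 genes tested (rows) in the 6 comparisons (columns, named group over reference); asterisks mark an adjusted p under 0.05 and the colour scale stops at 1 in each direction. Meox1 reaches 2.97 in Met over PIF, and the 4 calls in PIF over TB are all lower.

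**Figure D5:**
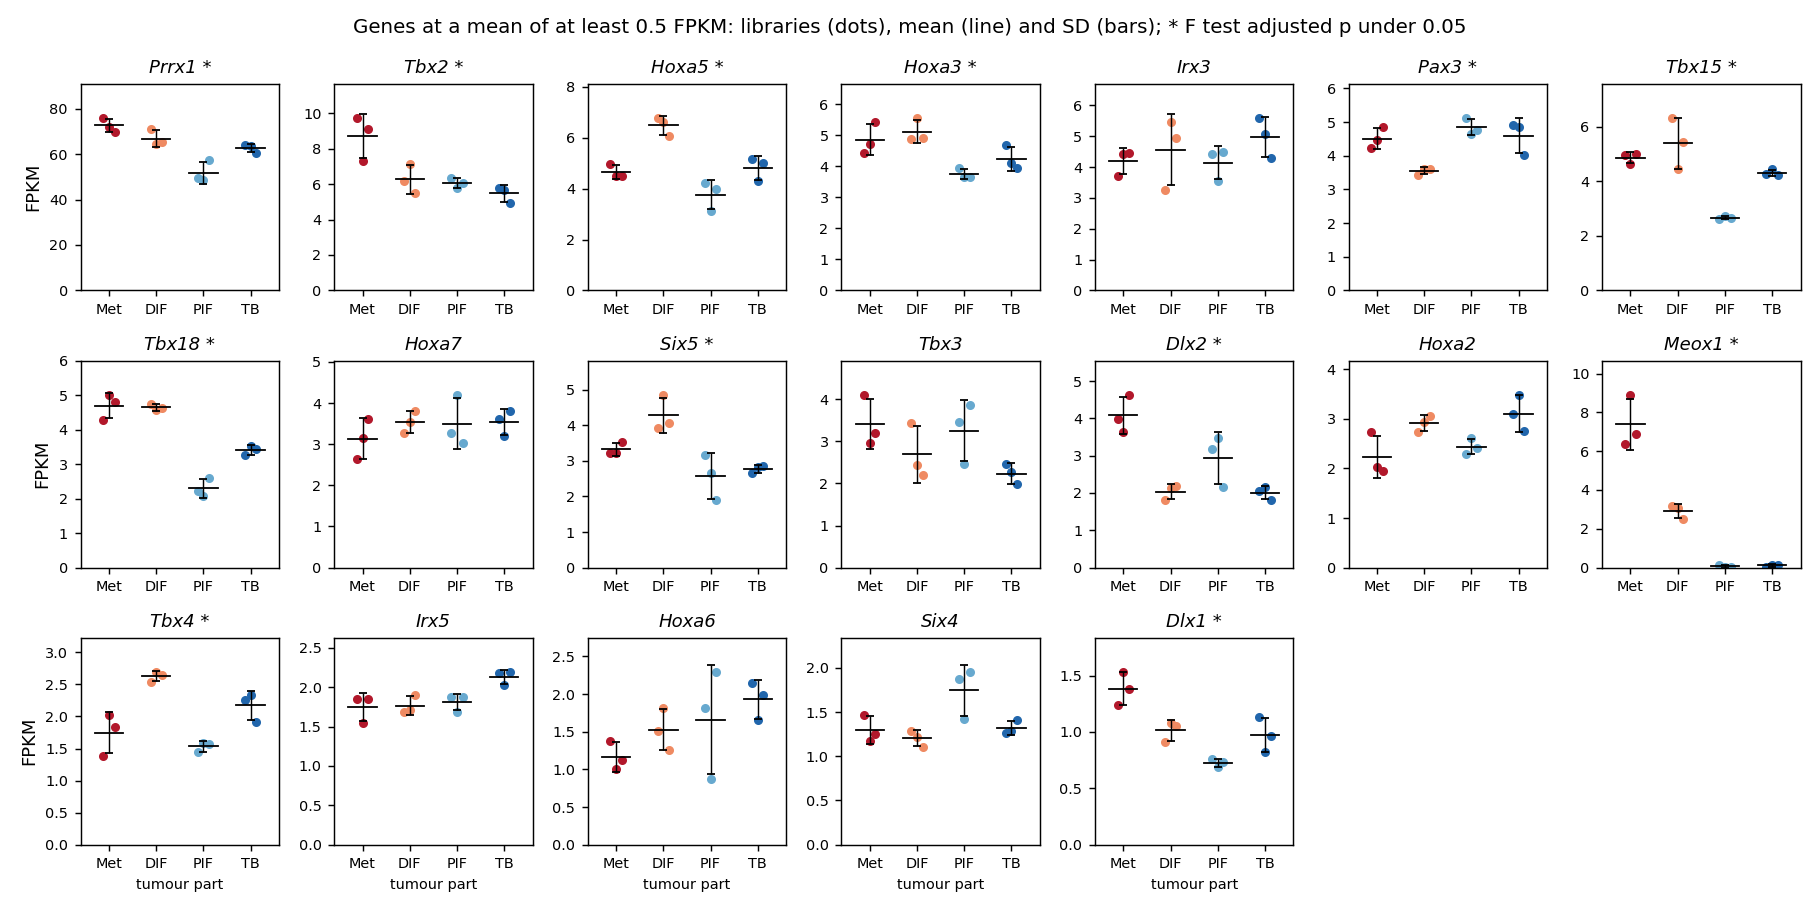
FPKM in each library of 19 of the 21 genes tested, 1 panel a gene, with groups in the order Met, DIF, PIF and TB; dots are libraries, lines are group means, bars are SD (n = 3) and asterisks mark an adjusted p of the F test under 0.05. Meox1 is close to 0 in all 6 PIF and TB libraries, and Tbx18 and Tbx15 are at their lowest in PIF.

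Meox1, a homeobox gene of the somites and the mesenchyme they give rise to, differed most. The deposited table lists it as ENSMUSG00000001493 on chromosome 11 at 101768336 to 101785200, minus strand. Its level was 6.37, 8.89 and 6.90 FPKM in the Met libraries, 3.15, 3.08 and 2.52 in DIF, 0.143, 0.0245 and 0.0250 in PIF, and 0.0255, 0.156 and 0.151 in TB. All Met libraries lay above all DIF libraries, which lay far above every PIF and TB library; PIF and TB overlapped. These values rest on 903 reads in Met, 345 in DIF, 7 in PIF and 13 in TB libraries, summed over 3 libraries a group. Per read assigned, Meox1 was thus 67.9 times as abundant in Met as in TB cells (95% exact conditional binomial interval 39.5 to 128) and 26.8 times in DIF as in TB cells (15.5 to 50.8), intervals that cover counting error only. Its log2 fold change was 2.91 for Met against TB (SE 0.12, limma adjusted p = 2.6e-08) and 1.82 for DIF against TB (SE 0.12, adjusted p = 2.4e-06). Against PIF cells it was 2.97 for Met (adjusted p = 1.8e-08) and 1.88 for DIF (adjusted p = 8.2e-07). Met exceeded DIF cells by 1.09 (SE 0.12, adjusted p = 0.00033); with a pseudocount of 0.1 in place of 1 the adjusted p of this pair was 0.052. Of the 8 fibroblast markers, Col1a1, Thy1, Pdgfrb and Col1a2 also had higher means in Met and DIF than in PIF and TB cells. Thy1 was at 0 in PIF and TB cells. Others differed: Pdgfra and Dcn had their highest means in PIF cells, and Lum had reads in DIF cells alone. Col3a1 averaged 7.09, 12.3, 6.86 and 10.6 FPKM in Met, DIF, PIF and TB cells. The part of these markers in the Meox1 result was not tested. Meox2, the relative of Meox1, was low, with a mean of 0.103 FPKM and 6, 25, 12 and 9 reads in Met, DIF, PIF and TB libraries.

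The T-box genes Tbx18, Tbx15 and Tbx4, factors of mesenchyme, were at their lowest in PIF cells. Tbx18, a gene of the epicardium and of mesenchyme around the ureter and the somites, had 4.29, 5.0 and 4.79 FPKM in Met libraries, 4.75, 4.56 and 4.64 in DIF, 2.22, 2.07 and 2.61 in PIF, and 3.26, 3.54 and 3.43 in TB. Met and DIF libraries overlapped, all of them lay above TB, and TB lay above PIF without overlap. Its log2 fold change was 0.37 for Met against TB (SE 0.07, limma adjusted p = 0.0084), 0.36 for DIF against TB (adjusted p = 0.012) and -0.42 for PIF against TB (adjusted p = 0.0035). Met and DIF cells exceeded PIF cells by 0.79 (adjusted p = 2.1e-05) and 0.78 (adjusted p = 1.9e-05). Each of these 5 calls held under every alternative run.

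Tbx15, which acts in skeletal development and in the dermis, where it sets a boundary of coat colour, had 4.97, 4.62 and 4.99 FPKM in Met libraries, 6.31, 4.43 and 5.43 in DIF, 2.60, 2.71 and 2.65 in PIF, and 4.25, 4.43 and 4.21 in TB. The 3 PIF libraries lay below the other 9, while DIF touched TB. PIF cells were lower than TB cells by a log2 fold change of -0.54 (SE 0.09, limma adjusted p = 0.0028), and Met and DIF cells exceeded PIF cells by 0.68 (adjusted p = 0.00029) and 0.80 (adjusted p = 7.8e-05). Tbx4, a gene of hindlimb and lung mesenchyme, had 1.39, 2.02 and 1.84 FPKM in Met libraries, 2.54, 2.69 and 2.65 in DIF, 1.44, 1.59 and 1.57 in PIF, and 2.26, 2.34 and 1.92 in TB. DIF libraries were the highest and PIF and Met overlapped. DIF exceeded PIF cells by 0.52 (SE 0.09, adjusted p = 0.0021). PIF was lower than TB by -0.32 (SE 0.09, adjusted p = 0.039), but this call was lost with no filter (adjusted p = 0.096), with voom on reads rebuilt from FPKM (0.064), with those 2 groups fitted alone (0.067), and without TB replicate 1 or 2, any PIF replicate, DIF replicate 2 or 3 or Met replicate 3, at adjusted p values of 0.054 to 0.14. Tbx4 was lower in Met than in DIF cells by -0.40 (SE 0.09, adjusted p = 0.034), a call lost with no filter (0.083), with those 2 groups alone (0.1), and without any DIF replicate or Met replicate 1 or 3 (0.078 to 0.11).

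Promoters of Tbx18 and Tbx4, which were both lower in PIF than in DIF cells, are given from RefSeq on GRCm38.p6 in the same form, with capitals marking CG dinucleotides. Tbx18 is at chr9:87731211-87731510 on the minus strand and Tbx4 at chr11:85896515-85896814 on the plus strand.
Tbx18: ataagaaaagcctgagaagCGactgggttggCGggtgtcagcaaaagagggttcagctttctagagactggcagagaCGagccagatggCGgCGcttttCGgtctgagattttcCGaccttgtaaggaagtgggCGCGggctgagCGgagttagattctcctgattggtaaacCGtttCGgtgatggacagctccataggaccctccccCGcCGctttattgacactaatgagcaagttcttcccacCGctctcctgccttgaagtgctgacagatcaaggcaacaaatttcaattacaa
Tbx4: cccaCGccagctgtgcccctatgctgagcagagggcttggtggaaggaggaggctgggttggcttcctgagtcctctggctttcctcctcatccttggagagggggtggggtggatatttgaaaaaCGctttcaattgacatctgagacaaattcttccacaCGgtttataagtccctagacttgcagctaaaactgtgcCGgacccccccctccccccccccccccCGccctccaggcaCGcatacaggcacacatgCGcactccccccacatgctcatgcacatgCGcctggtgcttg
The Tbx18 promoter holds 15 CG dinucleotides and the Tbx4 promoter 8. The T-box motif AGGTGTGA, searched on both strands, was absent from these 2 sequences and from all 14 promoters of genes on, and 1.28% of all promoters in the table hold it. TATAAA, searched on both strands, was found in 1 of the 14 and in 13.6% of all promoters. The match is in the Tbx4 promoter on the strand opposite to the printed one. In the printed sequence it appears as TTTATA from base 166. A match or its absence describes the letters of the window and no binding.

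Tbx2, a repressor of cell-cycle inhibitor genes that is overexpressed in some melanomas, was higher in Met cells. Its level was 9.72, 7.30 and 9.12 FPKM in Met libraries, 6.15, 7.13 and 5.52 in DIF, 6.33, 5.78 and 6.08 in PIF, and 5.78, 5.69 and 4.94 in TB. Every Met library lay above the other 9, which overlapped among themselves. Met exceeded TB cells by a log2 fold change of 0.58 (SE 0.10, limma adjusted p = 0.004) and PIF cells by 0.45 (SE 0.10, adjusted p = 0.011); against DIF cells the log2 fold change was 0.42 (SE 0.10) at an adjusted p of 0.051, with no overlap between the 2 groups. That last pair was called with a filter at 2 FPKM (0.045), under quantile normalization (0.041), with voom (0.039), and without DIF replicate 2 (0.042) or Met replicate 2 (0.02). Tbx3, its closest relative, averaged 3.42 ± 0.601 FPKM in Met, 2.69 ± 0.668 in DIF, 3.26 ± 0.719 in PIF and 2.24 ± 0.245 in TB cells (SD, n = 3 each). These groups overlapped in part, and the F test gave an adjusted p of 0.13 (limma). For Tbx3, Met against TB was called with those 2 groups alone (log2 fold change 0.44, adjusted p = 0.043) and with the replicate block (0.047), and PIF against TB without PIF replicate 2 (0.53, adjusted p = 0.039).

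Prrx1, the most abundant of the 100 genes, had 75.8, 72.1 and 69.9 FPKM in Met libraries, 71.0, 64.2 and 65.2 in DIF, 49.3, 48.7 and 57.3 in PIF, and 63.8, 63.7 and 60.6 in TB. The 3 PIF libraries were the lowest of the 12, and DIF and TB lay close together. Met and DIF cells exceeded PIF cells by a log2 fold change of 0.48 (SE 0.07, limma adjusted p = 0.0005) and 0.36 (SE 0.07, adjusted p = 0.003). PIF was lower than TB by -0.27 (SE 0.07, adjusted p = 0.023), a call lost under quantile normalization (adjusted p = 0.11), with those 2 groups fitted alone (0.069), and without TB replicate 1 or 2 or PIF replicate 1 or 2 (0.06 to 0.084). Met against TB, not called in the shared fit, was called with those 2 groups alone (0.21, adjusted p = 0.039), with voom (0.24, adjusted p = 0.045) and without PIF replicate 3 (0.21, adjusted p = 0.034). Its relative Prrx2 was low, with 20, 35, 4 and 0 reads in Met, DIF, PIF and TB libraries. The Prrx1 promoter is shown because it was the only one of the 14 promoters of genes on to hold the homeodomain motif TAATTA, searched on both strands and found in 5.29% of all promoters. It is from RefSeq on GRCm38.p6, chr1:163313601-163313900 on the minus strand, with the match starting at base 78 and capitals marking its 6 CG dinucleotides.
Prrx1: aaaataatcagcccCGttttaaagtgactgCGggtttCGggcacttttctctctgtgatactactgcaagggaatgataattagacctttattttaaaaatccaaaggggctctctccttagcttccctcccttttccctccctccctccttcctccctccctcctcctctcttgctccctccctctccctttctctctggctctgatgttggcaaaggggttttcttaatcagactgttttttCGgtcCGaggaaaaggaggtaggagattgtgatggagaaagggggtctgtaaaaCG

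Pax3, the neural crest and melanoblast factor, was lowest in DIF cells. It had 4.22, 4.47 and 4.85 FPKM in Met libraries, 3.43, 3.62 and 3.61 in DIF, 5.12, 4.65 and 4.78 in PIF, and 4.92, 4.87 and 4.01 in TB. The 3 DIF libraries lay below the other 9, and Met, PIF and TB overlapped. DIF cells were lower than PIF cells by a log2 fold change of -0.36 (SE 0.08, limma adjusted p = 0.006). They were lower than TB cells by -0.29 (SE 0.08, adjusted p = 0.034), a call lost with no filter (0.064), with those 2 groups fitted alone (0.08), in the fit with replicate number as a block (0.052), and without TB replicate 1 or 2, any DIF replicate or Met replicate 2 (0.051 to 0.14). The F test for Pax3 gave an adjusted p of 0.017, and 0.063 without DIF replicate 1. Without TB replicate 3, Met against DIF was called as well (0.27, adjusted p = 0.048). Mitf, a known target of PAX3, averaged 4.25 ± 0.827 FPKM in Met, 4.24 ± 1.17 in DIF, 11.1 ± 2.41 in PIF and 15.2 ± 0.622 in TB cells (SD, n = 3 each). The mean of Mitf was lower in Met and DIF cells than in PIF and TB cells. Pax3 in Met cells lay within the range of TB cells. A link between the levels of Pax3 and Mitf was not tested.

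Among the HOXA genes, Hoxa5, which acts in lung and in the neck-to-thorax skeleton, was highest in DIF cells. It had 4.98, 4.51 and 4.50 FPKM in Met libraries, 6.77, 6.61 and 6.06 in DIF, 4.21, 3.11 and 3.98 in PIF, and 5.18, 4.28 and 5.0 in TB. All DIF libraries lay above the other 9, and all PIF libraries below the other 9. DIF exceeded PIF cells by a log2 fold change of 0.66 (SE 0.09, limma adjusted p = 0.00044). DIF exceeded TB cells by 0.36 (SE 0.09, adjusted p = 0.034), a call lost with no filter (0.077) and without TB replicate 2 or 3, DIF replicate 1 or 2 or Met replicate 3 (0.051 to 0.15). Hoxa5 was lower in Met than in DIF cells by -0.40 (SE 0.09, adjusted p = 0.038), a call lost with no filter (0.084), with voom (0.054) and without TB replicate 3, any DIF replicate or any Met replicate (0.055 to 0.14). PIF against TB was called under quantile normalization (-0.32, adjusted p = 0.031) and with the replicate block (-0.29, adjusted p = 0.035), and Met against PIF with the block (0.26, adjusted p = 0.049).

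Hoxa3, a gene of the thymus and parathyroid, had 4.43, 4.73 and 5.41 FPKM in Met libraries, 4.89, 5.55 and 4.91 in DIF, 3.94, 3.66 and 3.66 in PIF, and 4.67, 4.09 and 3.95 in TB. The PIF libraries were the lowest 3, with PIF replicate 1 just under TB replicate 3. DIF exceeded PIF cells by a log2 fold change of 0.36 (SE 0.08, limma adjusted p = 0.0081). Met exceeded PIF cells by 0.30 (SE 0.08, adjusted p = 0.024), a call lost with those 2 groups fitted alone (0.062) and without PIF replicate 2 or 3 or Met replicate 2 or 3 (0.054 to 0.1). The noncoding RNA Hotairm1 averaged 5.96 ± 0.647 FPKM in Met, 6.58 ± 1.09 in DIF, 4.66 ± 0.141 in PIF and 6.68 ± 0.266 in TB cells (SD, n = 3 each), and was lower in PIF than in TB cells, by a log2 fold change of -0.44 (SE 0.10, limma adjusted p = 0.014).

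Hoxa2, the selector gene of the second branchial arch, had its lowest mean in Met cells. It had 2.73, 2.03 and 1.94 FPKM in Met libraries, 2.74, 2.94 and 3.06 in DIF, 2.30, 2.61 and 2.42 in PIF, and 3.10, 3.48 and 2.75 in TB. Met replicates 2 and 3 were the lowest of the 12 and TB replicate 2 the highest, with Met replicate 1 just under TB replicate 3, so that Met and TB did not overlap. Met was lower than TB by a log2 fold change of -0.35 (SE 0.10, limma adjusted p = 0.044). This call was lost under 13 of 19 alternatives, namely no filter (0.1), voom (0.1), those 2 groups alone (0.091), the replicate block (0.058), and leaving out TB replicate 1 or 2, PIF replicate 1 or 3, any DIF replicate or Met replicate 2 or 3 (0.051 to 0.17). Without Met replicate 1, Met against DIF was called (-0.39, adjusted p = 0.045), and the F test gave an adjusted p of 0.012 there and 0.041 under quantile normalization. Hoxa7 and Hoxa6, at the far edge of the expressed stretch, were called in no pair. Hoxa7 averaged 3.14 ± 0.493 FPKM in Met, 3.54 ± 0.264 in DIF, 3.50 ± 0.615 in PIF and 3.54 ± 0.314 in TB cells (SD, n = 3 each; F test adjusted p = 0.66, limma). Hoxa6 averaged 1.17 ± 0.196, 1.52 ± 0.274, 1.66 ± 0.724 and 1.93 ± 0.252 FPKM in Met, DIF, PIF and TB cells on 14 to 36 reads per library (F test adjusted p = 0.28, limma). PIF replicate 2 had the lowest level of Hoxa6 in the 12 libraries, at 0.874 FPKM. Without it, Met was lower than PIF cells by -0.50 (limma adjusted p = 0.023), against -0.26 (0.35) with all libraries. Met was lower than TB cells by -0.43 with or without that library. The adjusted p of this pair was 0.031 without it, 0.15 with all libraries and 0.037 with the 2 groups alone. The F test gave 0.033 without PIF replicate 2. Neighbouring genes of the stretch thus had different group orders, with the highest mean in TB cells for Hoxa2 and Hoxa6 and in DIF cells for Hoxa3 and Hoxa5; the difference between these orders was not tested.

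The distal-less genes Dlx1 and Dlx2, a linked pair of the forebrain and the branchial arches, were highest in Met cells. Dlx2 had 3.99, 3.63 and 4.62 FPKM in Met libraries, 1.81, 2.12 and 2.18 in DIF, 3.19, 3.46 and 2.15 in PIF, and 2.05, 2.15 and 1.81 in TB. All Met libraries lay above the other 9; DIF and TB overlapped, and PIF ran from the level of TB to just under Met. Met exceeded TB cells by a log2 fold change of 0.76 (SE 0.12, limma adjusted p = 0.0021) and DIF cells by 0.74 (SE 0.12, adjusted p = 0.0063). The middle place of PIF turned on single libraries: without PIF replicate 3, PIF exceeded TB cells by 0.53 (adjusted p = 0.0072) and DIF was lower than PIF by -0.51 (adjusted p = 0.0047), while Met exceeded PIF by 0.48 without PIF replicate 2 (adjusted p = 0.028) and by 0.50 with voom (0.041). Dlx1 had 1.24, 1.53 and 1.38 FPKM in Met libraries, 0.911, 1.08 and 1.05 in DIF, 0.756, 0.687 and 0.733 in PIF, and 1.13, 0.825 and 0.968 in TB. Met was again above the other 9 libraries, and PIF was below them. Met exceeded PIF cells by 0.47 (SE 0.09, adjusted p = 0.003), the only pair in which Dlx1 was called; voom also called Met against TB (0.54, adjusted p = 0.031). The table places Dlx1 at 71358457 to 71364325 on the plus strand and Dlx2 at 71373752 to 71377098 on the minus strand of chromosome 2.

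Of the SIX-family genes, homeobox partners of the EYA proteins, Six5 was highest in DIF cells. It had 3.22, 3.23 and 3.52 FPKM in Met libraries, 3.93, 4.85 and 4.06 in DIF, 3.18, 2.67 and 1.89 in PIF, and 2.65, 2.84 and 2.86 in TB. DIF lay above the other 9 libraries and PIF overlapped TB. DIF exceeded PIF cells by a log2 fold change of 0.57 (SE 0.12, limma adjusted p = 0.0049). DIF exceeded TB cells by 0.48 (SE 0.12, adjusted p = 0.027), a call lost with no filter (0.071) and without any TB replicate or DIF replicate 2 (0.074 to 0.12), and the F test, at an adjusted p of 0.014, gave 0.055 without DIF replicate 2. Met exceeded PIF by 0.41 without PIF replicate 1 (adjusted p = 0.033). Six4 had 1.47, 1.17 and 1.25 FPKM in Met libraries, 1.29, 1.22 and 1.11 in DIF, 1.87, 1.42 and 1.95 in PIF, and 1.26, 1.29 and 1.41 in TB. PIF libraries were the highest, though PIF replicate 2 fell under Met replicate 1. DIF was lower than PIF by -0.31 (SE 0.09, adjusted p = 0.037), a call lost with no filter (0.085), with those 2 groups alone (0.12) and without TB replicate 2, PIF replicate 1 or 3, any DIF replicate or Met replicate 3 (0.053 to 0.11). Without PIF replicate 2, PIF exceeded TB (0.33, adjusted p = 0.033) and Met was lower than PIF (-0.35, adjusted p = 0.023), a pair also called with quantile normalization (0.049) and voom (0.044); the F test gave 0.027 without that library and 0.04 with voom.

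The Iroquois genes Irx3 and Irx5 were called in no pair. Irx3 averaged 4.19 ± 0.424 FPKM in Met, 4.56 ± 1.15 in DIF, 4.15 ± 0.531 in PIF and 4.98 ± 0.656 in TB cells, with DIF libraries from 3.26 to 5.46 (F test adjusted p = 0.58, limma). Irx5 averaged 1.74 ± 0.180 FPKM in Met, 1.76 ± 0.117 in DIF, 1.81 ± 0.104 in PIF and 2.13 ± 0.0886 in TB cells, and its 3 TB libraries lay above the other 9 (F test adjusted p = 0.18, limma).

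Below the level tested, 2 genes reached a mean of 0.5 FPKM in a group. Lhx2, a LIM homeobox gene of hair follicles and the forebrain, averaged 0.345 ± 0.126 FPKM in Met, 0.472 ± 0.0845 in DIF, 0.585 ± 0.190 in PIF and 0.506 ± 0.106 in TB cells. Alx4, a gene of the skull and limb bud, averaged 0.339 ± 0.134, 0.482 ± 0.172, 0.234 ± 0.0438 and 0.516 ± 0.139 FPKM in Met, DIF, PIF and TB cells. Both rest on few reads, 20 to 52 a library for Lhx2 and 24 to 84 for Alx4. The remaining low genes, Lhx9, Hoxa4, Prrx2 and Meox2, had means of 0.361 to 0.103 FPKM over the 12 libraries. Among the genes at a trace, Lhx6 had 6, 11 and 6 reads in Met libraries, 12, 14 and 10 in DIF, 1, 0 and 0 in PIF, and 0, 4 and 2 in TB. All Met and DIF libraries lay above all PIF and TB libraries. With no filter on level, limma called Lhx6 for DIF against PIF (log2 fold change 0.18, adjusted p = 0.002), DIF against TB (0.16, adjusted p = 0.012) and Met against PIF (0.11, adjusted p = 0.028). Of all genes tested in that fit, 8.53%, 3.53% and 7.87% were called in these pairs. Without the filter, Pax9, a gene of the thymus, teeth and axial skeleton, was called as well, with 0, 3 and 2 reads in Met libraries, 6, 6 and 9 in DIF, 18, 18 and 7 in PIF, and 12, 11 and 5 in TB. Its Met libraries lay below the other 9, and Met was lower than PIF cells by -0.19 (adjusted p = 0.031). Of the 37 genes with a read but a mean under 1 FPKM, only Lhx6 and Pax9 were called in a pair without the filter.

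Partners and regulators of these factors were counted from lists, with the 24.8% of all genes tested that the F test called as background. In the pairs the background was 9.94% for Met against TB, 8.62% for DIF against TB, 14.1% for PIF against TB, 17.6% for Met against PIF, 18.9% for DIF against PIF and 3.86% for Met against DIF. Of 11 TALE homeodomain cofactors of HOX proteins, 10 were tested and the F test called 1, Meis2, at 1.78 ± 0.0690 FPKM in Met, 1.99 ± 0.0813 in DIF, 1.58 ± 0.243 in PIF and 2.37 ± 0.101 in TB cells (SD, n = 3 each; limma adjusted p = 0.017). Meis2 was lower in Met than in TB cells (log2 fold change -0.27, SE 0.08, adjusted p = 0.049) and in PIF than in TB cells (-0.39, SE 0.08, adjusted p = 0.0077); in single pairs Tgif1 was lower in DIF than in PIF cells and Pbx3 higher in Met than in PIF cells. The median log2 fold change of the 10 lay between -0.03 and 0.09 over the 6 pairs. DIF against TB had 0 calls by limma and by voom, with 1 of the 10 at an unadjusted p under 0.05. Of 6 EYA and DACH partners of SIX-family proteins, 2 were tested, and Dach1 was lower in Met and in DIF than in PIF cells, at 0.872 ± 0.0713, 0.984 ± 0.201, 1.61 ± 0.304 and 1.20 ± 0.243 FPKM in Met, DIF, PIF and TB cells. Limma called 0 of these 2 against TB cells in any group, where 0 stood at an unadjusted p under 0.05 and voom called 0. Of 10 partners of LIM-domain factors, 7 were tested and the F test called 3. In the pairs, Met against TB had 1 higher and 2 lower, DIF against TB 1 and 1, and PIF against TB 2 lower. Met against PIF had 1 higher and DIF against PIF 2 higher. Ldb2 averaged 12.7, 12.9, 16.2 and 20.5 FPKM in Met, DIF, PIF and TB cells. It was lower in Met and DIF than in TB cells (limma adjusted p = 0.028 and 0.036). Ssbp2 was lower in Met and PIF than in TB cells (adjusted p = 0.0082 and 0.00067). Ssbp3 was high in both Met and DIF cells, at 11.9 ± 0.452 and 11.6 ± 0.628 FPKM, against 7.86 ± 0.586 in PIF and 6.97 ± 0.152 in TB cells (log2 fold change for Met against TB 0.69, SE 0.06, adjusted p = 3.3e-05).

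Polycomb and Trithorax proteins hold HOX genes silent or active. All 36 genes listed for these proteins and related regulators were tested, and the F test called 8. In the pairs, Met against TB had 1 call and it was higher, DIF against TB 2 higher and 2 lower, PIF against TB 1 higher and 3 lower, Met against PIF 2 higher and 1 lower, and DIF against PIF 2 higher and 3 lower, with median log2 fold changes of 0.00 to 0.02. Ezh2, the histone H3 methyltransferase of Polycomb, averaged 29.8 ± 0.354 FPKM in Met, 26.6 ± 0.520 in DIF, 32.2 ± 2.32 in PIF and 32.2 ± 1.39 in TB cells and was lower in DIF than in TB cells (-0.27, SE 0.06, limma adjusted p = 0.015). Phf19, a Polycomb accessory protein, averaged 4.18 ± 0.0906, 3.69 ± 0.197, 3.49 ± 0.151 and 4.97 ± 0.481 FPKM in Met, DIF, PIF and TB cells and was lower in DIF and PIF than in TB cells (adjusted p = 0.009 and 0.0028). Aebp2 averaged 12.8, 11.2, 11.1 and 9.75 FPKM in Met, DIF, PIF and TB cells. It was higher in Met than in TB cells (0.35, SE 0.06, limma adjusted p = 0.0021). Kdm6a averaged 3.83, 2.99, 4.06 and 3.32 FPKM in those groups. It was lower in DIF than in PIF cells (-0.34, SE 0.07, limma adjusted p = 0.0056).

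Of 66 other patterning factors of mesenchyme and neural crest, 22 had no read and 19 were tested, of which the F test called 10. In the pairs, Met against TB had 3 higher and 1 lower, DIF against TB 2 and 1, PIF against TB 4 and 2, Met against PIF 3 and 3, DIF against PIF 2 and 3, and Met against DIF 1 and 1, with median log2 fold changes of 0.04 to 0.13. Among them, Nkx3-2, Tfap2a and Runx2 had their highest mean in PIF cells. Nkx3-2, a gene of axial skeleton, averaged 2.07 ± 0.223 FPKM in Met, 3.73 ± 0.304 in DIF, 8.15 ± 1.60 in PIF and 3.48 ± 0.842 in TB cells, with PIF higher than TB by a log2 fold change of 1.03 (SE 0.14, limma adjusted p = 0.0009). Tfap2a, a neural crest factor, averaged 9.81 ± 1.05, 10.2 ± 1.02, 17.0 ± 0.263 and 11.3 ± 0.646 FPKM in Met, DIF, PIF and TB cells, and PIF exceeded TB by 0.55 (SE 0.08, adjusted p = 0.0012). Runx2, the bone-forming factor, averaged 1.36 ± 0.0649, 0.801 ± 0.0585, 2.46 ± 0.388 and 1.26 ± 0.236 FPKM in the same order of groups, and PIF exceeded TB by 0.61 (SE 0.10, adjusted p = 0.0024). Osr1, a gene of connective tissue and kidney, was lowest in PIF cells, at 3.06 ± 0.498 FPKM in Met, 4.38 ± 0.512 in DIF, 1.97 ± 0.271 in PIF and 3.21 ± 0.479 in TB cells (PIF against TB -0.50, SE 0.12, adjusted p = 0.015).

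Retinoic acid signalling, which induces the 3' HOX genes in embryos, had 9 of 18 listed genes tested, and the F test called 6. In the pairs, Met against TB had 2 higher and 2 lower, DIF against TB 2 and 3, PIF against TB 2 lower, Met against PIF 3 and 1, and DIF against PIF 4 and 1, with median log2 fold changes of -0.00 to 0.23. Dhrs3 and Cyp26b1 differed in both Met and DIF from TB cells. Dhrs3, which reduces retinal, averaged 2.75 ± 0.412 FPKM in Met, 2.14 ± 0.896 in DIF, 13.2 ± 2.85 in PIF and 11.1 ± 1.25 in TB cells, and it was lower in Met (-1.69, SE 0.19, limma adjusted p = 0.00014) and in DIF cells (-1.98, SE 0.19, adjusted p = 5.1e-05) than in TB cells. Cyp26b1, which breaks down retinoic acid, averaged 3.07 ± 0.314, 3.08 ± 0.292, 1.16 ± 0.320 and 1.02 ± 0.278 FPKM in Met, DIF, PIF and TB cells, and it was higher in Met (1.02, SE 0.13, adjusted p = 0.00034) and in DIF cells (1.02, SE 0.13, adjusted p = 0.00041) than in TB cells. Aldh1a3, which makes retinoic acid, was highest in TB cells, at 56.4 ± 0.790, 50.5 ± 2.09, 44.0 ± 3.44 and 65.9 ± 0.110 FPKM in Met, DIF, PIF and TB cells. The receptor gene Rarb averaged 2.12 ± 0.195, 1.79 ± 0.185, 1.28 ± 0.215 and 2.52 ± 0.0229 FPKM in those groups and was lower in PIF than in TB cells (-0.63, SE 0.09, adjusted p = 0.00099). Met against DIF had 0 calls by limma in 5 of these lists. At an unadjusted p under 0.05 stood 2 of 10 TALE cofactors, 0 of 2 EYA and DACH partners and 1 of 7 partners of LIM-domain factors. So did 7 of 36 genes of the Polycomb and Trithorax list and 3 of 9 retinoic acid genes. Voom called 1 TALE cofactor, 1 gene of the Polycomb and Trithorax list and 0 of the other 3 lists.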

How the data were processed

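Libraries of 4599 cells were read as 150-base pairs, per the labels' protocols. Per the submitters' processing notes, fastp, HISAT2 2.0.5 and featureCounts 1.5.0-p3 were used; genome build, annotation and strandedness of counting were not given in the sources used here. The deposited values are FPKM per gene, computed by the authors. FPKM times gene length gave whole multiples of a single step per library for 100% of values at a tolerance of 0.001, so reads per gene were rebuilt, and these are the reads quoted; intervals and limits from reads cover counting error only. Levels are set per length, as FPKM. Depth was 15.5 to 18.4 M reads per library. Groups follow the labels.

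Values were tested as log2(FPKM + 1) with limma 3.58.1 (R 4.3.3) for genes with a mean of at least 0.5 FPKM, with 1 mean per group over all 12 libraries, an intensity trend and 8 residual degrees of freedom. The 6 pairs were compared two-sided, beside a moderated F test, with Benjamini-Hochberg adjustment over all genes tested and a threshold of 0.05. The scripts were tested on simulated data. Alternatives were a pseudocount of 0.1, a filter at 2 FPKM, no filter, quantile normalization, voom on rebuilt reads, only the 2 groups compared, the replicate number as a block, and leaving out each library.

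The genes and lists were chosen with earlier results of these data known. Genes with a mean of at least 0.5 FPKM are named, with each library's value where called; lists outside the families give counts and at most 4 genes with the smallest F test p, and HOX cluster rows from 0.5 FPKM. The values of 2 of the 21 genes tested are not reported here, though they stand in the counts. Hoxa4, Hoxa9, Hoxa10, Hoxa11, Hoxa13, Prrx2, Meox2, Lhx6, Lhx9, Pitx3, Msx3, Pax9, Tgif1 and Pbx3 are named beside these, a choice made with their values known. Promoter sequences are from RefSeq, GRCm38.p6.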

Additional observations from a re-analysis of the deposited data

How the results depend on the processing

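Of 49 calls among the 21 genes in the 6 pairs and the F test, 35 held under every alternative run and 14 were lost under at least 1; among those alternatives none reversed. The number of the 21 called moved with only the 2 groups compared to 2 for PIF against TB (4 in the shared fit), and with no filter to 2 for Met against DIF (4) and 2 for DIF against TB (5), where 58 of the 100 genes were tested and Lhx6 made a count of 3. Leaving out 1 library gave 2 to 4 calls for PIF against TB, 2 to 5 for DIF against TB, 4 to 6 for Met against TB, 9 to 11 for DIF against PIF, 7 to 10 for Met against PIF, 2 to 4 for Met against DIF and 12 to 15 for the F test. The cause of these moves was not tested, beyond the fewer libraries or larger number of genes in each fit. The labels do not say whether replicate numbers pair the libraries, and correlations with 3 libraries a group cannot settle it. With group means removed, same-numbered libraries correlated at -0.201 to 0.332, with 5 of 18 pairs above 0.1. Of 12 libraries, 6 correlated best with their own number. With the replicate number as a block, the counts were 5 for PIF against TB, 4 for DIF against TB, 5 for Met against TB, 10 for DIF against PIF, 9 for Met against PIF, 4 for Met against DIF and 13 for the F test. In the same order, the block gave 1901, 1226, 1317, 2562, 2342, 537 and 3323 calls over all genes tested. Each of these was more than in the shared fit. Over all genes tested, the calls for PIF against TB numbered 1785 in the shared fit and 1132 in the 2 groups alone, those for DIF against PIF 2390 and 1497, and those for Met against DIF 489 and 300. Leaving out 1 library took them as low as 958 for PIF against TB, 589 for DIF against TB (1091 in the shared fit), 793 for Met against TB (1259) and 234 for Met against DIF. They ran from 1822 to 2384 for DIF against PIF, from 1624 to 2298 for Met against PIF (2234) and from 2377 to 3118 for the F test (3135). With no filter, 1.46% of all genes tested were called for Met against DIF and 3.53% for DIF against TB. Depth limits what can be said of the 79 genes not tested, 42 of which had no read.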
